A study of Mus musculus with 9 samples.

Results

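The 8 genes described here encode the 6 mouse alpha-2,8-sialyltransferases (St8sia1 to St8sia6) and a pair of enzymes that build gangliosides next to them, St3gal5 and B4galnt1. They were taken by family and pathway from 46078 gene identifiers, and the set was chosen by the low level of St8sia1 at 24 h and 48 h, so the values of St8sia1 are given as a description without a test. RNA was sequenced from EGFP-SSCs, 1 cultured line of mouse spermatogonial stem cells that carries EGFP and is labelled WT, with 3 biological replicates at each of 3 times. The 0 h libraries came from normal culture on mouse embryonic fibroblasts treated with mitomycin C, in StemPro-34 SFM with its supplement, GDNF, basic fibroblast growth factor, epidermal growth factor, progesterone, β-estradiol, insulin, transferrin, serum, bovine albumin and small nutrients. The 24 h and 48 h libraries came from the same line mixed in equal parts with somatic cells from the testes of busulfan-treated mice aged 3 to 7 days, in α-MEM with KSR, retinoic acid, BMP-4/7, activin A, FSH, testosterone and BPE. EGFP-positive cells were then sorted. The replicates are cultures of a single line, so their spread does not cover differences between lines or animals. Against 0 h, time, medium and co-culture changed together and cannot be told apart, while the 24 h and 48 h groups share medium and co-culture. The study used these times to follow the differentiation of spermatogonial stem cells in vitro.

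Gangliosides are membrane glycolipids that carry sialic acid. Their synthesis starts from lactosylceramide, which St3gal5, the GM3 synthase, turns into GM3. GM3 is then either extended by B4galnt1, the GM2/GD2 synthase, or given a second sialic acid by St8sia1, the GD3 synthase. St8sia5 adds sialic acid to later gangliosides. St8sia2 and St8sia4 instead build polysialic acid chains on carrier proteins such as NCAM, and St8sia3 and St8sia6 place short sialic acid chains on glycolipids or glycoproteins.

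St8sia1 (ENSMUSG00000030283) lies on the minus strand of chromosome 6 at chr6:142821545-142964452 in GRCm38, and St3gal5 (ENSMUSG00000056091) lies on the plus strand of the same chromosome at chr6:72097592-72154571. The 250 bases before the RefSeq start of these genes (GRCm38.p6) are shown because they stand in front of the member picked for its low late level and of a member that was not called. The RefSeq table held a window for 5 of the 8 genes. Capitals mark the 6-base matches to GGGCGG (the GC box) and AGGTCA (the nuclear receptor half-site) on either strand. The St8sia1 window is chr6:142964453-142964702, printed on the minus strand, and lies outside the annotated exons of the gene. The St3gal5 window is chr6:72097358-72097607 on the plus strand, and its last 16 bases lie in an annotated exon of St3gal5.
St8sia1: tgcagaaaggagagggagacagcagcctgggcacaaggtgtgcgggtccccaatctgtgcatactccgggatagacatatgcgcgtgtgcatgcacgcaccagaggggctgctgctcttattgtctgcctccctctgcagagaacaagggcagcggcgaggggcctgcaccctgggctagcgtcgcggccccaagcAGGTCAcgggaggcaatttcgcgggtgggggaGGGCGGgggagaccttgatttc
St3gal5: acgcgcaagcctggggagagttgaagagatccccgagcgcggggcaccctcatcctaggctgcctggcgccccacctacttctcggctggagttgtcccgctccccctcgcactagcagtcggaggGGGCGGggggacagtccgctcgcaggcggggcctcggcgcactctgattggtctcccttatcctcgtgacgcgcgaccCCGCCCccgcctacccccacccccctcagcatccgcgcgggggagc

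The St8sia1 window held 1 GC box, 22 bases before the start, and 1 AGGTCA match, 54 bases before the start. The St3gal5 window held 2 GC boxes, 124 and 46 bases before the start, and no AGGTCA match. Over all 32851 windows of this length, 32.74% held GGGCGG and 14.02% held AGGTCA. Neither window matched CGGAAG (the ETS core, in 13.59% of windows), CACGTG (the E-box, in 6.021%) or TATAAA (the TATA box, in 12.37%) on either strand, and no matches overlapped. Both windows were richer in G and C than the median window of 52.4%, with 63.6% for St8sia1 and 71.6% for St3gal5. St8sia1 had 14 CpG pairs and St3gal5 had 25, against a median of 6. These matches describe the letters and say nothing about binding.

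Library totals ran from 16825251 to 22201892 counts. Levels are given as counts, as CPM (counts relative to the library's total, scaled with TMM), or, where genes are compared with each other, as FPKM computed here per length of all exons. A gene was called where its adjusted p in edgeR's quasi-likelihood test, corrected over all genes tested by Benjamini-Hochberg, was up to 0.05. The 6 markers of undifferentiated spermatogonia, among them Gfra1, Ret and Etv5, summed to 1630 to 1880 CPM at 0 h. They summed to 360 to 388 at 24 h and 263 to 293 at 48 h. Against 0 h, 5 of the 6 were called lower at 24 h and all 6 at 48 h. Zbtb16 was not called at 24 h (means of 302 and 268 CPM, log2 -0.16, edgeR adjusted p = 0.486) and held most of the 24 h sum. Id4 was called higher from 24 h to 48 h (log2 0.87, edgeR adjusted p = 0.0019). The 4 markers of differentiating spermatogonia summed to 71.1 to 91.3, 1700 to 1760 and 1020 to 1070 CPM. Kit, Stra8 and Sohlh1 were called higher than at 0 h at both later times. Dmrtb1 was called at neither. Its 24 h libraries all lay below its 0 h libraries (log2 -0.50, edgeR adjusted p = 0.0617), and its log2 value at 48 h was 0.03. The 5 general germ cell markers such as Dazl and Ddx4 summed to 1080 to 2180, 1310 to 1560 and 1400 to 1680 CPM. Markers of other cells also differed between times. The labels give sorting of EGFP-positive cells at 24 h and 48 h and do not state it for 0 h, where feeder fibroblasts were present in the culture. The study describes flow sorting of the cells from its culture stages before RNA-seq, without naming 0 h. The 6 fibroblast and stromal markers (Col1a1, Dcn and others) summed to 261 to 357 CPM at 0 h, 2090 to 2420 at 24 h and 2810 to 3100 at 48 h, with 4 of 6 called higher at each time and none at 0. The 5 peritubular myoid markers summed to 8.78 to 10.7, 99.2 to 138 and 184 to 230 CPM, with 4 called higher at each later time. Acta2 (means of 1.98, 97.9 and 168 CPM) held most of the later sums, and Des was not called against 0 h (log2 -0.48 and -0.05). The 8 Sertoli cell markers summed to 14 to 18.1, 34.2 to 47.5 and 42.8 to 45.4 CPM, with Rhox8, Fshr and Cst12 at 0 in every 0 h library and no marker at 0 throughout the 24 h or 48 h libraries, and Sox9 was called lower at 24 h (log2 -0.80, edgeR adjusted p = 0.0175) while 5 of 6 tested were higher. The 6 Leydig cell markers summed to 4.48 to 6.79, 24.6 to 38.5 and 25.2 to 32.5 CPM. Of these, 3 could be tested, with 2 called higher at 24 h and 3 at 48 h. Among those too low to test, Insl3 lay above its 0 h libraries at both times, while Cyp17a1 and Lhcgr overlapped theirs. The 4 endothelial markers summed to less at both later times (43.3 to 47.2, 14.4 to 18.7 and 12.2 to 12.8 CPM), although Tek was called higher at 24 h and 48 h (log2 1.31 and 1.53, edgeR adjusted p = 0.0166 and 0.00329). The 4 macrophage markers summed to 15.3 to 17.5, 6.14 to 9.91 and 6.33 to 9.16 CPM, and this lower sum came from Cd68 (means of 15.7, 5.78 and 5.45 CPM). The rest, all low, did not fall alike. Csf1r was called higher at 24 h (log2 1.90, edgeR adjusted p = 0.0332), where Adgre1 also lay above its 0 h libraries without a test. Lyz2 was called higher from 24 h to 48 h (log2 1.75, edgeR adjusted p = 0.0208). In such bulk libraries fewer cells of a type and less RNA per cell cannot be told apart.

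Between 0 h and 24 h, B4galnt1 and St8sia6 fell, St8sia5 and St8sia2 rose, and St3gal5 was not called. At 48 h B4galnt1 and St8sia6 were again lower than at 0 h and St8sia5 higher, while St8sia2 was not called. Of the 7 genes other than St8sia1, 5 passed the filter on low counts and could be tested in each comparison. St8sia3 and St8sia4 did not pass in any. At 24 h 2 of the 7 were called lower, 2 higher, 1 was not called and 2 were not tested. Over all 17592 genes tested, 14.2% were lower and 11.4% higher. At 48 h 2 of the 7 were called lower and 1 higher, and over all 17755 genes tested, 18.5% were lower and 13% higher. Between 24 h and 48 h only St8sia6 was called, lower, against 12.7% lower and 8.61% higher over 17499 genes tested. With library size alone in place of TMM, the share of calls that were higher went from 44.5% to 57.1% at 24 h and from 41.2% to 52.8% at 48 h, and the median of all genes moved by 0.113 and 0.110 on the log2 scale. Nothing about the set is read from these shares, since it was chosen for St8sia1 and its other members were named with earlier results of these data known. The comparisons with 0 h share the same 3 control libraries.

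**Figure D1:**
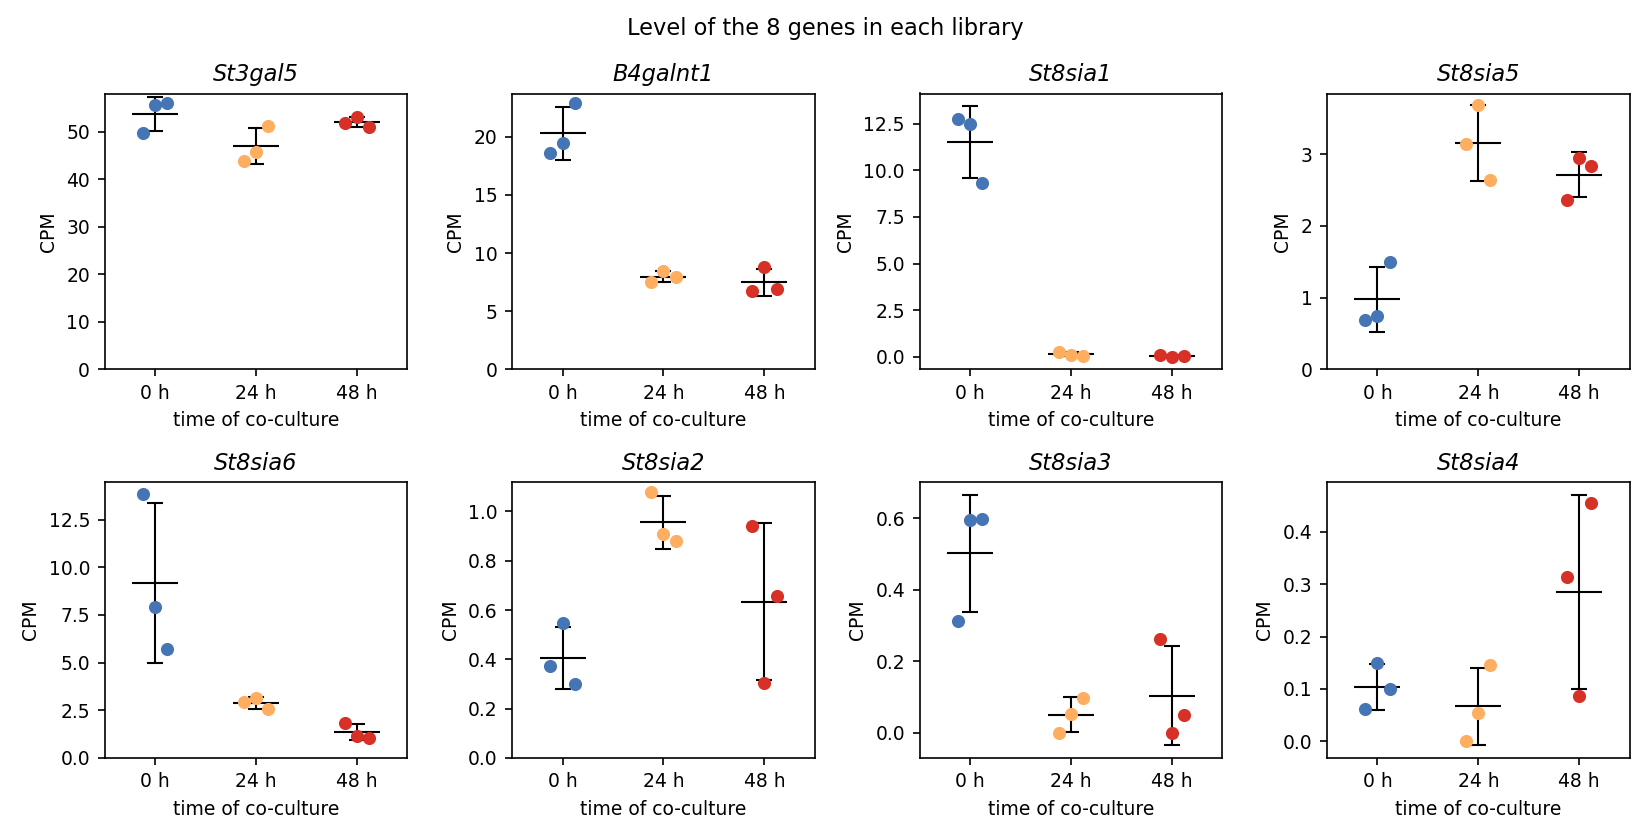
Level of each of the 8 genes in CPM (vertical axes, each from its own scale) in the 3 libraries at 0 h, 24 h and 48 h of co-culture, with the mean (long bar) and SD (short bars). St3gal5 stays between 43.8 and 55.9 CPM, while St8sia1 drops from 9.31 to 12.8 CPM at 0 h to at most 0.245 CPM later.

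St3gal5, the enzyme at the entry of the ganglio-series, kept nearly the same level throughout. Its counts were 797, 1123 and 1123 at 0 h, 893, 857 and 1047 at 24 h, and 992, 1224 and 1008 at 48 h. The corresponding CPM were 49.7, 55.7 and 55.9, then 43.8, 45.8 and 51.1, then 51.9, 53.1 and 51.0, so the groups overlapped. The log2 fold change was -0.18 ± 0.11 (SE, n = 3 per group; edgeR adjusted p = 0.285) at 24 h and -0.05 ± 0.10 (edgeR adjusted p = 0.773) at 48 h. The interval of 2 SE around the difference ran from -0.41 to 0.04 at 24 h and from -0.25 to 0.16 at 48 h, so a change beyond these sizes was not seen in these libraries. The sign at 48 h depended on the scaling: with library size alone the log2 value was 0.06, with offsets for GC content and length it was 0.13, and without the third 0 h replicate it was 0.01, none of them called. No window of its longest transcript matched another gene.

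B4galnt1 (ENSMUSG00000006731, chr10:127165225-127172330, plus strand), which takes GM3 and GD3 on to GM2 and GD2, fell within 24 h and stayed low. Its level was 18.6, 19.4 and 22.9 CPM at 0 h, 7.51, 8.44 and 7.96 CPM at 24 h, and 6.70, 8.81 and 6.93 CPM at 48 h. Every later library lay below every 0 h library, and the later groups overlapped. The mean fell from 20.3 ± 2.27 CPM (SD, n = 3) to 7.97 ± 0.467 and 7.48 ± 1.16 CPM, a log2 fold change of -1.34 ± 0.14 (SE; edgeR adjusted p = 0.000565) at 24 h and -1.44 ± 0.17 (edgeR adjusted p = 0.0008) at 48 h. Between 24 h and 48 h the log2 difference was -0.10 ± 0.15 (edgeR adjusted p = 0.668), and it was 0.13 with GC and length offsets. Both calls against 0 h held in all 9 alternative fits and in the 6 fits that left out a library. B4galnt1 shares 715 exon bases (20.7% of its exons) with Slc26a10 on the opposite strand. Of the 75-base windows of its longest transcript, 28% matched another gene, and this was Slc26a10 alone. Slc26a10 had 95, 215 and 194 counts at 0 h, 17, 35 and 27 at 24 h, and 22, 45 and 33 at 48 h. The library kit was not stated to mark strand, and the part of B4galnt1's counts that came from the shared bases was not tested.

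St8sia1, which commits GM3 to GD3 and the b-series, was the member for which the set was chosen. It had 205, 252 and 187 counts at 0 h (12.8, 12.5 and 9.31 CPM), 5, 2 and 1 counts at 24 h (0.245, 0.107 and 0.0488 CPM), and 2, 0 and 1 counts at 48 h (0.105, 0 and 0.0506 CPM). Every later library lay below every 0 h library, and at 48 h 3 counts would correspond to 0.146 CPM. Summed over the replicates, 644 counts at 0 h stood against 8 at 24 h, a ratio of 85.2 after scaling with a 95% counting interval of 43.0 to 198, and against 3 at 48 h, a ratio of 236 with an interval of 80.4 to 1148. These intervals cover counting error only. The fitted log2 fold changes were -6.34 ± 0.41 (SE) at 24 h and -7.71 ± 0.48 at 48 h, and they ranged from -7.11 to -5.94 and from -8.59 to -7.11 when single libraries were left out. Among the 10766 genes whose mean reached 10 CPM in either group, this was the lowest fitted value at 24 h, next to Spry4 at -6.24. At 48 h it was the lowest of 10851, next to Tmc8 at -6.93. This place restates how the set was chosen. St8sia1 reached 10 CPM through its 0 h group alone, and its fitted value at 24 h was -5.94 without the third 24 h replicate. The counts at 24 h and 48 h were too few to compare those times. Of the St8sia1 exon bases, 1.6% overlap Gm7457 on the opposite strand, which had 0 to 4 counts in every library.

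St8sia5 (ENSMUSG00000025425, chr18:77185839-77258771, plus strand), which adds sialic acid to gangliosides further along the pathway, rose from a low level. Its counts were 11, 15 and 30 at 0 h, 64, 69 and 54 at 24 h, and 45, 68 and 56 at 48 h. In CPM these were 0.685, 0.744 and 1.49, then 3.14, 3.69 and 2.64, then 2.35, 2.95 and 2.83, so all later libraries lay above all 0 h libraries. The log2 fold change was 1.69 ± 0.36 (SE; edgeR adjusted p = 0.0127) at 24 h and 1.46 ± 0.35 (edgeR adjusted p = 0.0183) at 48 h. The difference between 24 h and 48 h was -0.22 ± 0.21 (edgeR adjusted p = 0.481). The 24 h call was lost without the second 0 h replicate (adjusted p = 0.0549), the first 24 h replicate (0.0508) or the second (0.0573), and the 48 h call without the second 0 h (0.0688), second 48 h (0.0698) or the third 48 h replicate (0.066), while the log2 values stayed between 1.504 and 2.17 and between 1.28 and 1.94. The summed fibroblast, myoid, Sertoli and Leydig markers given above were higher in the same libraries, and their part in the St8sia5 rise was not tested. Gm7276, which overlaps 7.12% of its exon bases on the other strand, had 0 to 6 counts.

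**Figure D2:**
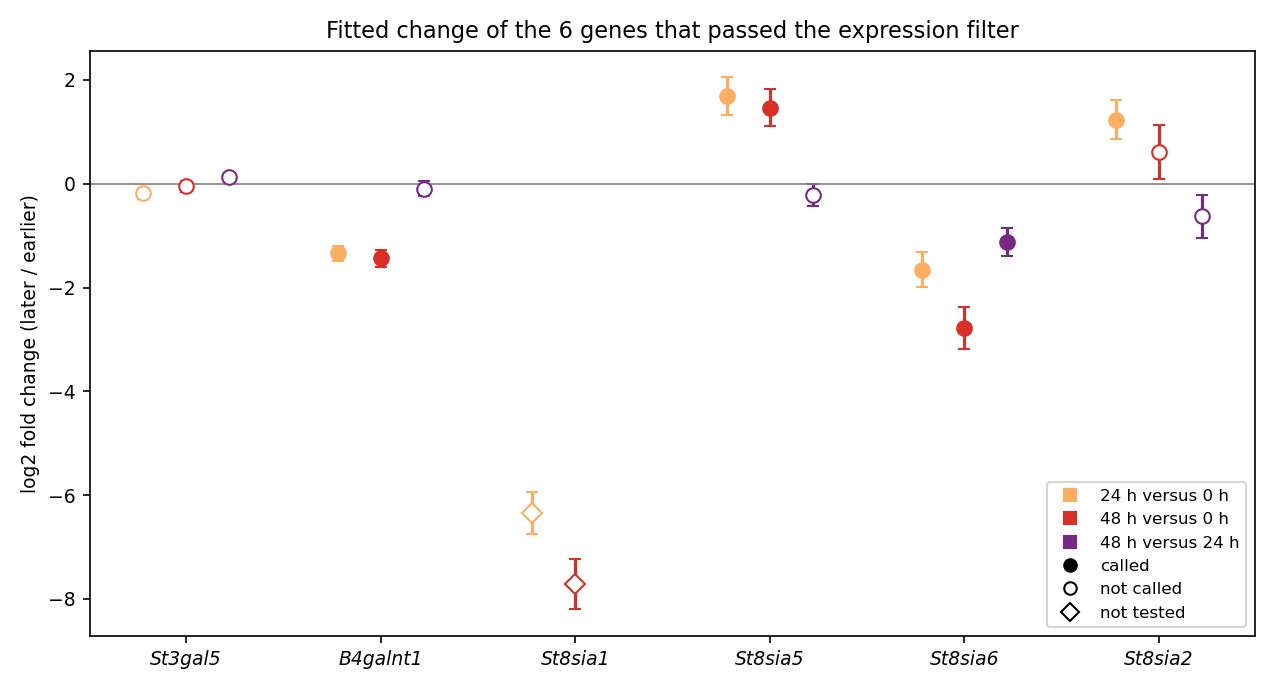
Fitted log2 fold change (vertical axis, later over earlier time) of the 6 genes that passed the expression filter, with 1 SE, for 24 h versus 0 h, 48 h versus 0 h and 48 h versus 24 h. Filled points were called, open circles were not, and St8sia1 (diamonds) has no test. St8sia1 reaches -6.34 and -7.71, B4galnt1 and St8sia6 lie below 0 against 0 h, St8sia5 lies above 0 at both times, and St3gal5 lies near 0.

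St8sia6 (ENSMUSG00000003418, chr2:13651021-13794064, minus strand), which acts mainly on sialylated O-glycans, fell step by step. It had 222, 160 and 115 counts at 0 h, 60, 59 and 52 at 24 h, and 35, 26 and 21 at 48 h. The CPM were 13.8, 7.93 and 5.73 at 0 h, 2.94, 3.15 and 2.54 at 24 h, and 1.83, 1.13 and 1.06 at 48 h, with no overlap between any of the times even though the 0 h libraries themselves spread widely. The log2 fold change was -1.65 ± 0.34 (SE; edgeR adjusted p = 0.0112) at 24 h, -2.77 ± 0.40 (edgeR adjusted p = 0.00202) at 48 h, and -1.12 ± 0.27 (edgeR adjusted p = 0.018) from 24 h to 48 h. The 48 h call against 0 h held without any single library. The 24 h call was lost without the third 24 h replicate (adjusted p = 0.0565). The step from 24 h to 48 h was lost with all 9 libraries in 1 fit (0.111) and without the first 24 h (0.0571), second 24 h (0.0558) or the third 48 h replicate (0.0649).

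The polysialyltransferases were close to the limit of detection. St8sia2 (ENSMUSG00000025789, chr7:73939119-74013690, minus strand), active mainly in embryonic tissue, had 6, 11 and 6 counts at 0 h, 22, 17 and 18 at 24 h, and 18, 7 and 13 at 48 h. The 24 h libraries (0.878 to 1.08 CPM) lay above the 0 h libraries (0.299 to 0.545 CPM), and the 48 h libraries (0.304 to 0.942 CPM) overlapped both. The rise at 24 h, a log2 fold change of 1.23 ± 0.37 (SE; edgeR adjusted p = 0.0481), was lost in each of the 6 fits that left out a library (adjusted p from 0.0672 to 0.178) and in 5 of 8 alternative fits, including DESeq2 (0.133). At 48 h the log2 value was 0.61 ± 0.52 (edgeR adjusted p = 0.421). St8sia4 (ENSMUSG00000040710, chr1:95587682-95667571, minus strand), the other polysialyltransferase, had 1 to 3 counts per library at 0 h, 0 to 3 at 24 h, and 6, 2 and 9 at 48 h, too few for the filter. Without the filter its log2 value was -0.60 at 24 h and 1.36 at 48 h, with edgeR adjusted p of 0.813 and 0.4. St8sia3 (ENSMUSG00000056812, chr18:64254359-64279611, plus strand), known mainly from brain, had 5, 12 and 12 counts at 0 h, 0, 1 and 2 at 24 h, and 5, 0 and 1 at 48 h. In the fit without the filter St8sia3 had a log2 value of -3.16 (edgeR adjusted p = 0.0272) at 24 h and -2.28 (edgeR adjusted p = 0.116) at 48 h. Its closest libraries at 0 h and 48 h had 5 counts each, or 0.311 and 0.262 CPM.

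Per length, St3gal5 was the most abundant of the 8 transcripts at every time, with means of 20.5 ± 1.36, 17.9 ± 1.44 and 19.9 ± 0.412 FPKM (SD, n = 3) in the 0 h, 24 h and 48 h groups. B4galnt1 followed with 5.88 ± 0.657, 2.31 ± 0.135 and 2.17 ± 0.336 FPKM, or 8.49, 3.33 and 3.12 FPKM when its longest transcript was used as the length. At 0 h St8sia1 (1.23 ± 0.206 FPKM) and St8sia6 (1.20 ± 0.547 FPKM) came next and overlapped each other. St8sia5 (0.179 ± 0.083), St8sia2 (0.0754), St8sia3 (0.0428) and St8sia4 (0.00515 FPKM) stood below them, each separate from its neighbour. At 24 h St8sia5 (0.581 ± 0.0968 FPKM) stood next after B4galnt1, above St8sia6 (0.376 ± 0.0408) and St8sia2 (0.177 FPKM), while St8sia1 (0.0143 FPKM), St8sia3 and St8sia4 overlapped at the bottom. At 48 h St8sia5 again followed B4galnt1 with 0.500 ± 0.0583 FPKM. St8sia6 (0.175 ± 0.0556) and St8sia2 (0.118 FPKM) overlapped there, as did St8sia4, St8sia3 and St8sia1 below them.

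The make-up of the alpha-2,8-sialyltransferase transcripts is given as a description, since it contains the gene the set was chosen for. The summed level of the 6 St8sia genes was 2.13 to 3.40 FPKM at 0 h, 1.00 to 1.28 at 24 h and 0.752 to 0.896 at 48 h. St8sia1 made up 40.2%, 50.1% and 46.8% of that sum in the 0 h libraries, and at most 2.21% at 24 h and 1.25% at 48 h. St8sia5 made up 3.71%, 5.13% and 12.9% at 0 h, 48.6%, 53.1% and 48.5% at 24 h, and 48.3%, 72.3% and 64.0% at 48 h. St8sia6 held 35.1% to 53.1% at 0 h, 32.2% to 33.1% at 24 h, and 26.7%, 19.6% and 17.01% at 48 h. St8sia5 held the highest share in each of the 6 later libraries, with 45 to 69 counts per library, while the sum itself was lower than at 0 h.

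**Figure D3:**
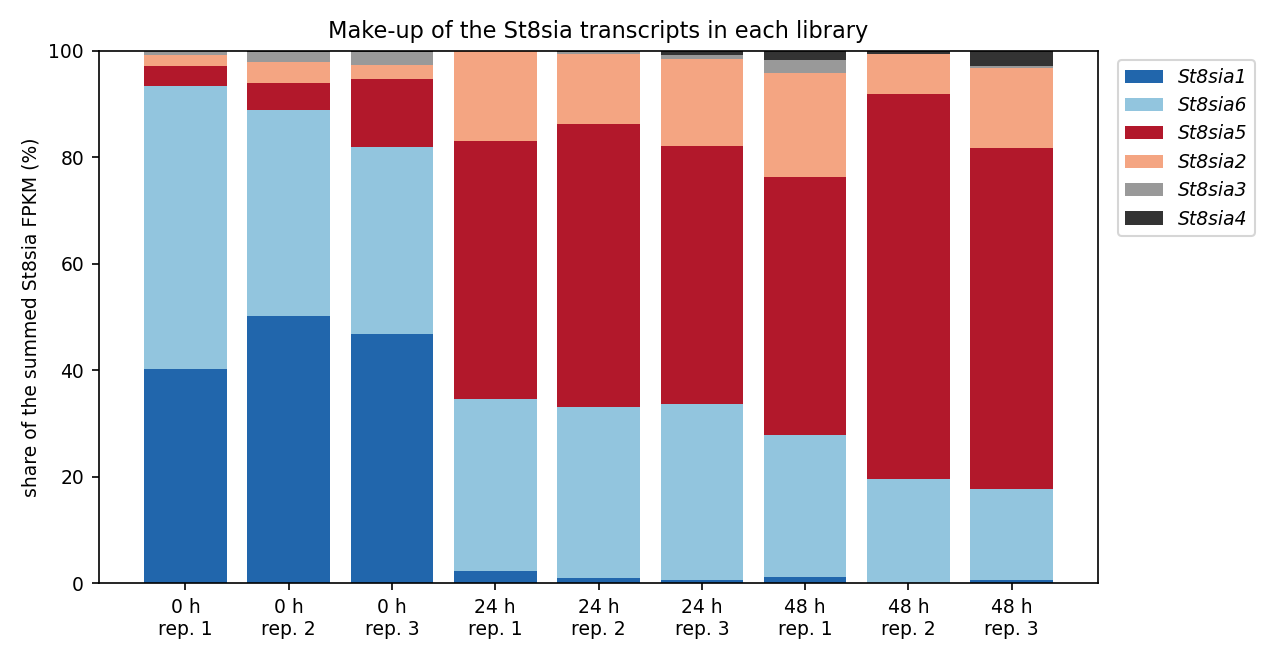
Share of each St8sia gene (stacked bars, percent) in the summed FPKM of the 6 St8sia genes, for each of the 9 libraries. St8sia1 and St8sia6 make up most of the 0 h bars, and St8sia5 makes up 48.3% to 72.3% of the later bars.

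Levels per length were also set against St3gal5, whose product both branches use. St3gal5 was not called, so these ratios largely repeat the levels above. That of St8sia1 restates how the set was chosen. B4galnt1 stood at 26.5% to 31.0% of the St3gal5 level per length at 0 h, 11.8% to 14.0% at 24 h and 9.78% to 12.6% at 48 h. St8sia1 stood at 4.67% to 7.21% of St3gal5 at 0 h, 0.0268% to 0.157% at 24 h and at most 0.0565% at 48 h. St8sia5 stood at 0.644% to 1.29%, 2.49% to 3.88% and 2.19% to 2.68%. These ratios are of transcripts, and no lipid was measured in these libraries.

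Of 41 other genes of sialic acid and ganglioside metabolism, 35 passed the filter. At 24 h 5 were called higher and 5 lower, with a median log2 fold change of -0.02 against 0.01 over all genes tested, where 11.4% were higher and 14.2% lower. At 48 h 5 were higher and 7 lower, with a median of -0.15 against 0.02 over all genes, where 13% were higher and 18.5% lower. Between 24 h and 48 h 3 were higher and 10 lower, with a median of 0.03 against -0.0045 over all genes, where 8.61% were higher and 12.7% lower. The lists below are parts of these 41 genes, and their counts stand beside the same shares over all genes. The counts moved with the libraries used, from 4 to 17 at 24 h and from 7 to 18 at 48 h when 1 library was left out, with the lowest counts without the second 24 h replicate and the third 48 h replicate and the highest without the third 0 h replicate. Between 24 h and 48 h they ran from 7, without the first 48 h replicate, to 11, and 4 were called with all 9 libraries in 1 fit. Calls over all genes moved too, from 2607 to 6023, 3471 to 7116 and 1857 to 4356 in the 3 comparisons when 1 library was left out.

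Among the 12 genes at the branch points of glycolipid synthesis and in later ganglioside steps, 11 were tested and St6galnac5 was not. At 24 h 2 were lower and 9 not called, and at 48 h 3 were lower and 8 not called, with medians of -0.21 and -0.23, against 14.2% and 18.5% lower over all genes. St3gal1, which sialylates O-glycans and can act on later gangliosides, fell from 81.0, 87.1 and 87.1 CPM at 0 h to 48.9, 46.4 and 35.5 CPM at 24 h and 35.5, 37.8 and 34.7 CPM at 48 h. Its log2 fold change was -0.95 (edgeR adjusted p = 0.0033) and -1.24 (edgeR adjusted p = 0.000169), and it kept both calls without any single library. B3galnt1, the globoside synthase, was lower at 24 h (log2 -0.81, edgeR adjusted p = 0.0137), a call lost without any of the 24 h replicates (0.0563 to 0.0658). B4galt5, a lactosylceramide synthase, and St6galnac6, an alpha-series ganglioside enzyme, were lower at 48 h with log2 values of -0.65 and -0.98 (edgeR adjusted p = 0.00995 and 0.0101), and each lost this call without the first or the third 48 h replicate (0.0516 to 0.059). Both also fell from 24 h to 48 h, by 0.56 and 0.70 on the log2 scale. Ugcg, the glucosylceramide synthase that opens the pathway, was not called against 0 h, with means of 64.9, 45.6 and 55.4 CPM.

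Among 13 other sialyltransferases, 10 were tested and St3gal6, St6galnac1 and St6galnac5 were not. At 24 h 2 were higher and 1 lower (median 0.05), and at 48 h 3 were higher and 2 lower (median 0.22), against 11.4% and 13% higher and 14.2% and 18.5% lower over all genes. Both lists hold St3gal1, St3gal2, St6galnac3, St6galnac5 and St6galnac6. St6gal1, which adds alpha-2,6-linked sialic acid to N-glycans, averaged 16.9 ± 1.26 CPM (SD, n = 3) in the 0 h libraries, 31.1 ± 1.80 in the 24 h and 24.6 ± 0.627 in the 48 h libraries. It rose at both times, with a log2 fold change of 0.89 (edgeR adjusted p = 0.00147) and 0.54 (edgeR adjusted p = 0.01), the latter lost without the third 48 h replicate (0.0548). St3gal4 rose likewise, by a log2 value of 0.79 (edgeR adjusted p = 0.00371) at 24 h and 0.44 (edgeR adjusted p = 0.029) at 48 h, and kept the 24 h call without any single library but lost the 48 h call without the second 0 h replicate or any 48 h replicate (0.0692 to 0.124). St6galnac4 was higher at 48 h (log2 0.68, edgeR adjusted p = 0.0115), a call lost without the second or the third 48 h replicate (0.0563 and 0.052).

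**Figure D4:**
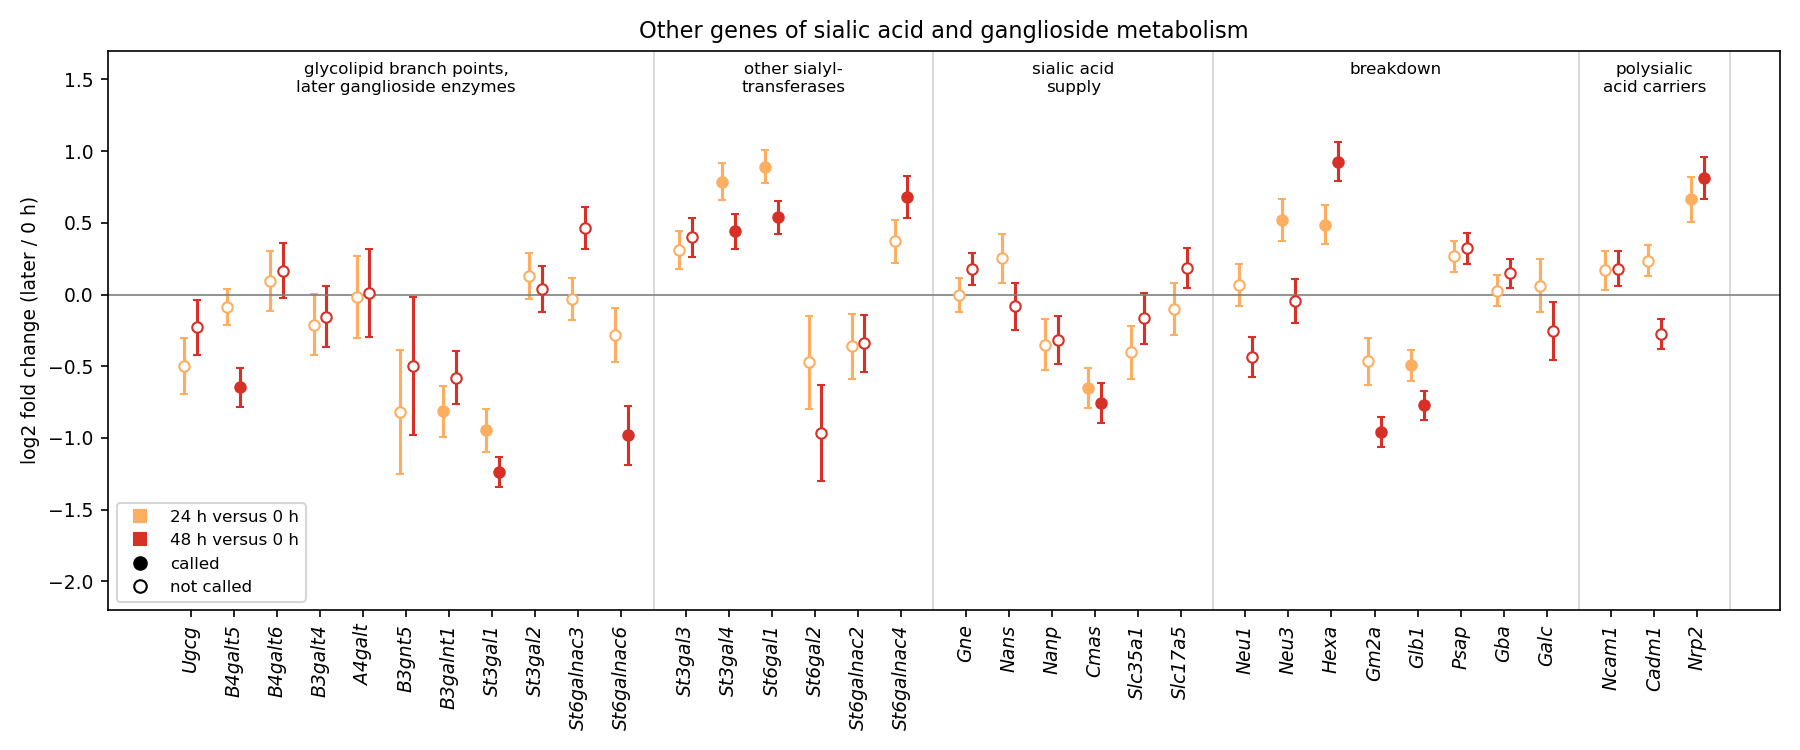
Fitted log2 fold change (vertical axis, later time over 0 h) with 1 SE for tested genes of 5 lists of sialic acid and ganglioside metabolism, at 24 h and 48 h. Filled points were called. The genes shown lie within 1 log2 unit of 0 except St3gal1 at 48 h, at -1.24.

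The supply of activated sialic acid showed 1 call, lower, among 6 tested genes of 7 at each time, with medians of -0.23 and -0.12, against 14.2% and 18.5% lower over all genes. Cmas, which makes the sugar nucleotide CMP-sialic acid, averaged 83.5 ± 10.2 CPM in the 0 h libraries, 52.6 ± 6.91 in the 24 h and 49.3 ± 4.96 in the 48 h libraries (SD, n = 3). It fell, with log2 fold changes of -0.65 (edgeR adjusted p = 0.013) and -0.76 (edgeR adjusted p = 0.00562). The 24 h call was lost without the first or second 24 h replicate (0.0714 and 0.0702). Gne, the entry enzyme of sialic acid synthesis, was not called, with means of 28.1, 27.8 and 31.8 CPM. Cmah did not pass the filter.

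Among 11 genes of ganglioside and sialic acid breakdown, 9 were tested and Neu2 and Neu4 were not. At 24 h 2 were higher and 2 lower (median 0.06), and at 48 h 1 was higher and 3 lower (median -0.25), against 11.4% and 13% higher and 14.2% and 18.5% lower over all genes. Hexa, which encodes a subunit of a lysosomal enzyme that acts on the product of B4galnt1, stood at 48.8, 58.6 and 67.1 CPM at 0 h, 77.1, 79.0 and 86.4 at 24 h, and 113, 112 and 106 at 48 h. No later library overlapped the 0 h libraries. Hexa rose by 0.49 and 0.93 on the log2 scale (edgeR adjusted p = 0.0367 and 0.00205). The Hexa call at 24 h was lost without the second 0 h replicate or any 24 h replicate (0.107 to 0.141), whereas the call at 48 h was kept without any single library. Gm2a, the GM2 activator protein, was lower at 48 h (log2 -0.96, edgeR adjusted p = 0.000569), and Glb1, the lysosomal beta-galactosidase, was lower at 48 h (log2 -0.77, edgeR adjusted p = 0.00132), both kept without any single library. Glb1 was also lower at 24 h (log2 -0.49, edgeR adjusted p = 0.013) and Neu3, a membrane sialidase that acts on gangliosides, was higher at 24 h (log2 0.52, edgeR adjusted p = 0.0365), but both lost these calls without the second 0 h replicate or any 24 h replicate (0.0532 to 0.142). Psap, the precursor of the saposins, was not called against 0 h, with means of 549, 654 and 686 CPM.

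Of the 3 carriers of polysialic acid, Nrp2 was higher at both times (log2 0.66 and 0.81, edgeR adjusted p = 0.0187 and 0.00522), against 11.4% and 13% higher over all genes, and Ncam1, the main carrier, was not called, with means of 29.6, 33.0 and 33.6 CPM. The Nrp2 call at 24 h was lost without the second 0 h, second 24 h or the third 24 h replicate (0.0681 to 0.0894). Cadm1 was not called against 0 h and fell from 24 h to 48 h (log2 -0.51, edgeR adjusted p = 0.0012).

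From 24 h to 48 h the direction of the lists was mixed. At the branch points 2 of 11 tested genes rose and 2 fell, among other sialyltransferases 1 of 10 rose and 3 fell, in supply 1 of 6 fell, in breakdown 1 of 9 rose and 4 fell, and of the carriers 1 of 3 fell. The medians were 0.06, -0.19, 0.11, -0.28 and 0.01, and over all genes 8.61% were higher and 12.7% lower. Hexa (log2 0.44) and St6galnac3 (0.49), an alpha-series enzyme, rose, and B4galt5, St6galnac6, Cadm1, the lysosomal sialidase Neu1 (-0.50, edgeR adjusted p = 0.00528) and Neu3 (-0.56, edgeR adjusted p = 0.00742) fell, and each kept its call without any single library. With all 9 libraries in 1 fit Hexa (edgeR adjusted p = 0.0568), St6galnac6 (0.0544) and Neu1 (0.0562) lost this call, and St6galnac3 lost it with the replicate block and the GC and length offsets (0.0539). Ugcg, which was higher, and Nans, St3gal4, St6gal1, Gm2a and Glb1, which were lower, all lost their calls without the first 48 h replicate (0.0654 to 0.124), and all but St6gal1 also without other single libraries. The part that other cells played in the rises of St8sia2, St3gal4, St6gal1, St6galnac3, St6galnac4, Neu3, Nrp2, Hexa and Ugcg was not tested.

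Among 13650 protein-coding genes that averaged 1 CPM or more, likeness to each member was ranked by Pearson's r over log2 CPM of the 9 libraries. These points share their libraries, depth and groups, so the values are descriptions. The patterns most like St8sia1 were those of Esrp1 (r = 0.995, with means of 201, 27.8 and 22.04 CPM), Usp46 (0.995, with 71.8, 16.7 and 15.7 CPM), Plb1, Ptpn3 and Adgrl2 (each 0.994). By Spearman's rho the 5 most alike genes shared 0 with this list. En1 (0.994, with means of 29.2, 4.49 and 3.92 CPM), Fgfr1 (0.994, with 301, 126 and 122 CPM) and Rnf122 were most like B4galnt1. Dhx34 (0.993), Rhpn2 and Sbno2 were most like St8sia5, and Ppox (0.978), Sgpp2 and Ptprg most like St8sia6. Aatf (0.954), 4933434E20Rik and Csrp2 were most like St3gal5, and Tube1 (0.901), 1700020D05Rik and AI429214 most like St8sia2. For B4galnt1, St8sia5, St8sia6, St3gal5 and St8sia2 too, the genes most alike by Spearman's rho differed from those named here. Between the members themselves, r was 0.951 for St8sia1 and B4galnt1, 0.910 for St8sia1 and St8sia6, and -0.917 for St8sia1 and St8sia5.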

How the data were processed

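The study sequenced poly(A) RNA of EGFP-SSCs in 9 libraries. The authors deposited counts, whole numbers of reads per gene, which the submitters' notes tie to fastp, HISAT2, featureCounts and GRCm38, with versions and annotation release not given in the sources used here. Of 46078 identifiers, 45229 were found in GENCODE M21, which gave symbols, positions and exon lengths. The rest held at most 0.121% of any library's counts.

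The members, lists and alternatives were chosen with earlier results of these data known. Each comparison used the 6 libraries of its groups. Genes passed filterByExpr, were scaled by TMM and were tested two-sided with edgeR 4.0.16 (R 4.3.3) and Benjamini-Hochberg adjustment at 0.05. SE came from the same fits. Correlations and likeness used log2 CPM with a prior count of 2. Alternatives were DESeq2 1.42.0, its size factors, library size alone, no filter, a minimum of 10 counts per library, a joint fit of all 9 libraries, a block for the replicate number, GC and length offsets, the block with these offsets, and each library left out. The fits were tested on simulated data first. Named genes were all members, called genes of fixed pathway lists with at most 4 others per list, marker genes and the genes most like each member. Matches of 75-base windows at 97% identity were found with BLAST 2.17.0. Replicates of a group differed by more than sampling noise (chi-square per degree of freedom of at least 7.12). The 0 h libraries differed most, with 35.5 to 81.4, against 7.97 to 13.4 at 24 h and 7.12 to 26.0 at 48 h. A gene of the breakdown list counts in its list's totals and is not reported here.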

Additional observations from a re-analysis of the deposited data

How the results depend on the processing

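Among the members, the direction against 0 h held in every alternative for B4galnt1, St8sia1, St8sia5, St8sia2 and St8sia6, and the calls of B4galnt1 at both times and of St8sia6 at 48 h held throughout. St3gal5 at 48 h (log2 -0.05) turned to 0.063 with library size alone, to 0.133 with GC and length offsets, to 0.134 with the replicate block and these offsets, and ran from -0.10 to 0.010 when single libraries were left out. B4galnt1 from 24 h to 48 h (-0.10) turned to 0.127 with GC and length offsets and to 0.122 with the replicate block and offsets. None of these values was called, and the cause was not tested. St3gal5 from 24 h to 48 h was called with these offsets alone (0.24, edgeR adjusted p = 0.0422).

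Called members other than St8sia1 numbered 4 at 24 h, 3 at 48 h and 1 from 24 h to 48 h, and ran from 2 to 4, from 2 to 4 and from 0 to 1 when single libraries were left out. For the last step there were 0 with all 9 libraries in 1 fit and 2 with GC and length offsets. Called pathway genes numbered 10, 12 and 13. They came to 17 and 19 against 0 h with GC and length offsets, 19 at 48 h with the block and offsets, 19 at 48 h and 4 from 24 h to 48 h with all 9 libraries in 1 fit, and 4 to 17, 7 to 18 and 7 to 11 with single libraries left out. Calls over all genes numbered 4494, 5602 and 3732, with 1043 from 24 h to 48 h when all 9 libraries were fitted together, and 2607 to 6023, 3471 to 7116 and 1857 to 4356 with single libraries left out. The lowest of these left out the second 24 h, first 48 h and first 48 h replicate, and the highest the third 0 h, first 0 h and second 48 h replicate.

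With the replicate number as a block, pathway calls came to 6 at 24 h, 11 at 48 h and 8 between them, and of the members St8sia2 lost its 24 h call (adjusted p = 0.121) while the others kept theirs. Same-numbered samples share only a number, with correlations of their deviations from -0.28 to 0.193 against -0.388 to 0.378 for other pairs. Depth limited St8sia3, St8sia4 and the later levels of St8sia1, each at a few counts per library.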
